A study of Mus musculus with 8 samples.

Results

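The mouse genome carries a large family of genes named Zfp and a number, which encode proteins with C2H2 zinc fingers. Of these, the 90 protein-coding genes numbered from 800 to 999 (Zfp800 to Zfp999) on chromosomes 1 to 19 are described here. They were chosen by name, in the GENCODE M21 annotation of GRCm38, the assembly that mm10 names, with earlier results of these data known. In the full annotation 91 names fit, and the 1 left out is not protein-coding. They are compared with the 268 other numbered Zfp genes and with all 20720 autosomal protein-coding genes, both counted by the same rules.

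To examine where H3K27-me3 lies at these genes after downregulation of JMJD3, ChIP-seq data from livers of male JMJD3-floxed C57BL/6 mice were used. Both virus groups carried the floxed allele. At the age of 8 weeks the mice received AAV-TBG-Cre, which expresses Cre from a hepatocyte promoter, or AAV-GFP as the control, and livers were taken 12 weeks later after a 16 h fast. The series holds 8 libraries, 2 of H3K27-me3 and 2 of input in each group, and the authors combined both H3K27-me3 libraries of a group into 1 list of peaks, so 2 lists were compared and no value per mouse was at hand. No difference between the lists could therefore be set against the spread between mice, no test was made, and the Wilson 95% intervals given here cover counting error only.

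Zinc-finger proteins of this family bind DNA through arrays of C2H2 fingers. Many of them carry a KRAB box at the N terminus, which recruits the corepressor TRIM28 and, through it, the methyltransferase SETDB1 and HP1 proteins, and such proteins are best known for silencing endogenous retroviruses. Their genes multiply by local duplication, so that near-identical copies lie side by side in clusters. H3K27-me3 is laid by Polycomb complexes, typically at CpG-rich start sites of genes that are silent in a tissue, and JMJD3, encoded by Kdm6b, removes it. In whole liver a peak can come from hepatocytes or from other cells, and fewer cells of a type and a lower level per cell cannot be told apart.

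The lists differ in ways that touch the counts below. On the autosomes AAV-Cre held 58951 peaks with a median width of 753 bp and AAV-GFP 34307 peaks with a median of 231 bp, and no peak was shorter than 300 and 120 bp, respectively. Of these peaks, 88.5% and 46.8% reached a q-value of at most 0.05. Of the ranks given by the peak caller, 15.9% were absent from the AAV-Cre list and 0.0607% from the AAV-GFP list. Sequencing depth is unknown, and a fold enrichment over input is therefore given only as a property of a peak in its own list. As a check of the mark, 12 of 12 developmental regulators had a peak within 15 kb of a start site in both lists, against 1 of 12 hepatocyte genes (Cyp2e1). Of 15 genes that mark other liver cells, 11 had one in AAV-Cre and 9 in AAV-GFP. These 3 short lists were fixed with earlier results of these data known.

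Most Zfp800 to Zfp999 genes had no peak near a start site. Where copies are near-identical, reads cannot be placed with certainty, so a gene without a peak may still carry the mark. A gene was called marked when a peak lay within a given distance of a start site of its protein-coding transcripts, or overlapped its body. Within 1 kb, 7 of the 90 genes were marked in AAV-Cre (7.78%, interval 3.82 to 15.2%), against 24.6% of all autosomal protein-coding genes and 13.1% of the other numbered Zfp genes. In AAV-GFP, also 7 were marked (7.78%), against 17.1% of all genes and 7.84% of the other Zfp genes. Both lists marked 5 of the 90 (5.56%, against 16.8% of all genes). Within 1 kb, 2 genes were marked in AAV-Cre only and 2 in AAV-GFP only, which is 2.22% each (interval 0.612 to 7.74%), where the background was 7.81% of all genes for AAV-Cre only and 0.294% for AAV-GFP only. The former were Zfp819 and Zfp941, and the latter Zfp981 and Zfp982 of that chromosome 4 cluster, without which the AAV-GFP only count was 0.

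In the wider window of 15 kb, 16 of the 90 genes were marked in AAV-Cre (17.8%, interval 11.2 to 26.9%) and 18 in AAV-GFP (20%, interval 13 to 29.4%). Of all genes, 43.1% and 29% were. Of the other numbered Zfp genes, 34% were marked in AAV-Cre and 20.1% in AAV-GFP. Both lists marked 9 of the 90 (10%, background 27.7%), and 65 were marked in neither (72.2%, background 55.7%). AAV-Cre only were 7 (7.78%, background 15.3%), and AAV-GFP only were 9 (10%, interval 5.35 to 17.9%), where the background was 1.25% of all genes and the other Zfp genes gave 4 of 268 (1.49%). The excess of AAV-GFP only calls rested on 1 gene cluster on chromosome 4, described below: without its 16 genes, 9 genes were marked in AAV-GFP and 1 in AAV-GFP only.

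Over the gene body, 9 genes held a peak in AAV-Cre (10%, interval 5.35 to 17.9%, against 29.8% of all genes) and 15 in AAV-GFP (16.7%, interval 10.4 to 25.7%, against 21.4% of all genes). Of the other numbered Zfp genes, 15.3% held one in AAV-Cre and 9.7% in AAV-GFP. AAV-Cre only were 3 (3.33%, background 9.1%) and AAV-GFP only were 9 (10%, background 0.748%), where the other Zfp genes gave 5.97% and 0.373%. Without that cluster, 7 bodies held an AAV-GFP peak and 1 an AAV-GFP peak only. Taking a peak within 15 kb or over the body, 27 of the 90 genes had a peak in either list, against 46.1% of all genes, and 63 had none. AAV-Cre had 17 of them (background 44.7%), AAV-GFP had 20 (background 30.7%) and both had 10 (background 29.3%). AAV-Cre only were 7 (background 15.4%) and AAV-GFP only 10 (background 1.36%), of which 1 lay outside the chromosome 4 cluster. Among the 63 were Zfp932, a repressor of endogenous retroviruses, whose nearest peak lay 94682 bp away in AAV-Cre and 334978 bp in AAV-GFP, and Zfp830, a pre-mRNA processing factor, with 56190 and 146705 bp.

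**Figure D1:**
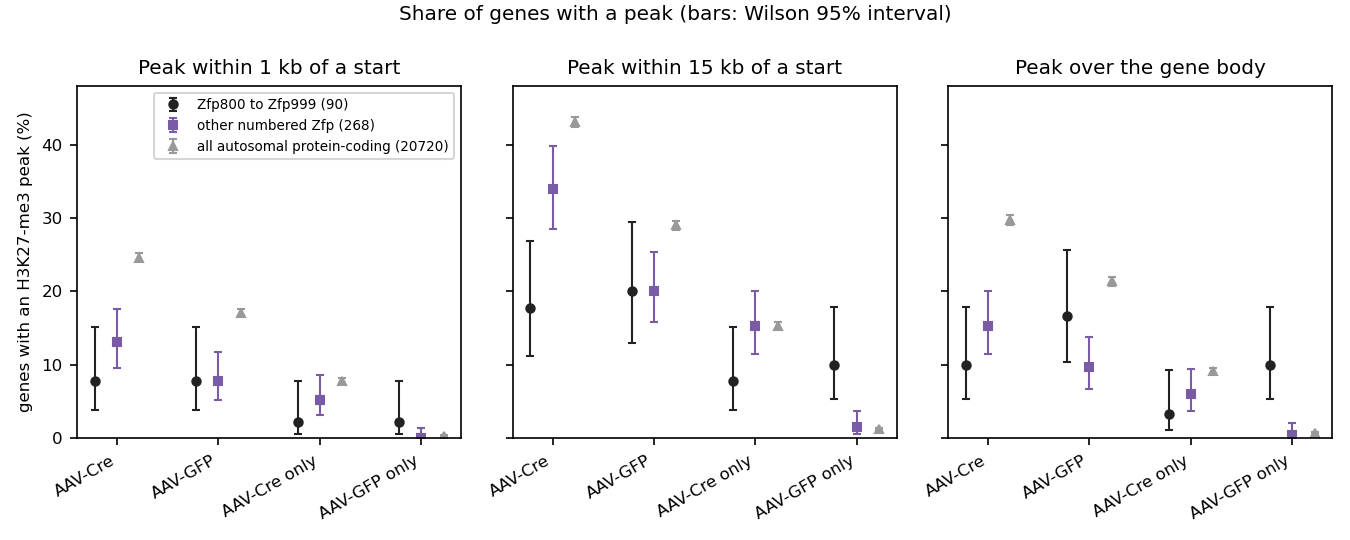
Share of genes with an H3K27-me3 peak (%, y axis) within 1 kb and 15 kb of a start site and over the gene body, for the 90 Zfp800 to Zfp999 genes, the 268 other numbered Zfp genes and all 20720 autosomal protein-coding genes, with points for the share and bars for the Wilson 95% interval. The Zfp800 to Zfp999 points lie below those of all genes for AAV-Cre in each panel, and above them for AAV-GFP only, at 10% against 1.25% within 15 kb.

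The distance from a start site to the nearest peak gave the same picture without a window. In AAV-Cre the median over the 90 genes was 76.5 kb (interquartile range 29.8 to 254 kb), against 23.9 kb over all genes, and in AAV-GFP it was 76.6 kb (22.8 to 189 kb), against 53.8 kb. The genes of the chromosome 4 cluster parted from the others here, with medians of 139 kb in AAV-Cre and 7.66 kb in AAV-GFP. For the 74 genes outside the cluster the medians were 69 and 87.1 kb.

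The genes with peaks at the start site in both lists were Zfp827, Zfp853, Zfp800, Zfp850 and Zfp811. Zfp827 (ENSMUSG00000071064.13, chromosome 8, 79028437 to 79193766, plus strand), whose human counterpart brings the NuRD complex to telomeres, stood apart in both lists. Its gene body held 28 peaks in AAV-Cre, which covered 38.9% of its length, and 50 shorter peaks in AAV-GFP, which covered 10.7%. At its start AAV-Cre had a peak of 2918 bp (chr8:79028389-79031306, fold enrichment 13.1, q-value 7.8e-68), and AAV-GFP had 1 of 2734 bp (chr8:79028482-79031215, fold enrichment 5.94, q-value 4.8e-21). Both reached into a first exon. That AAV-GFP peak was the widest over any of the 90 bodies in that list, and the widest in AAV-Cre, 10436 bp, lay 23660 bp from a start of the same gene. Of the 54 AAV-GFP peaks in or within 15 kb of Zfp827, 52 overlapped an AAV-Cre peak, and 2 did not.

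Zfp853 (ENSMUSG00000093910.2, chromosome 5, 143287038 to 143293623, minus strand) is a short gene of 6.59 kb, of which AAV-Cre peaks covered 92.5% and AAV-GFP peaks 47.4%. A single AAV-Cre peak of 6922 bp (chr5:143287530-143294451, fold enrichment 11, q-value 4e-54) ran from before the start into the last exon. AAV-GFP had 3 peaks over the same body, the longest of 2170 bp over the last exon (fold enrichment 5.77, q-value 2.7e-20). A pair of further AAV-Cre peaks, 11566 and 14145 bp from its start, were closer to the start of Zfp316.

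Zfp800 (ENSMUSG00000039841.14, chromosome 6, 28239927 to 28398005, minus strand) had an AAV-Cre peak of 4408 bp over 1 of its 3 starts (fold enrichment 9.04, q-value 2.7e-33). In AAV-GFP the same stretch held 5 peaks of 163 to 1809 bp, the nearest 1 bp from that start, with q-values from 5.3e-08 to 0.46. Of its whole body of 158 kb, AAV-Cre peaks covered 3.54% and AAV-GFP peaks 1.51%.

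Zfp850 (ENSMUSG00000096916.7, chromosome 7, 27984854 to 28014115) and Zfp811 (ENSMUSG00000055202.11, chromosome 17, 32795676 to 32809931) are KRAB genes on the minus strand and were marked more narrowly. Over the start of Zfp850 AAV-Cre had 1 peak of 2216 bp (fold enrichment 7.48, q-value 1.1e-24) and AAV-GFP had 1 of 159 bp (q-value 0.032), with another of 436 bp (q-value 0.098) 218 bp into the gene. Over the start of Zfp811 AAV-Cre had a peak of 1659 bp with the same fold and q-value as at Zfp850, and AAV-GFP had 1 of 557 bp with a q-value of 0.052. At Zfp811 AAV-Cre had 4 further peaks in the body, whereas AAV-GFP had 0. With a q-value of 0.01 or lower, Zfp850 and Zfp811 kept the AAV-Cre peak at the start and lost their AAV-GFP peaks.

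The sequence before the start is shown for the 3 of these genes with the strongest AAV-Cre peak, and for the first 3 by name among the genes with no peak in either list, because CpG dinucleotides are the feature that Polycomb-marked start sites usually share. Each is the 250 bases before a RefSeq start (GRCm38.p6), 5′ to 3′ on the strand of the gene, with every CG in capitals. Zfp827 (chr8:79028187-79028436, plus strand) held 23, Zfp853 (chr5:143293535-143293784, minus strand) 19 and Zfp800 (chr6:28398006-28398255, minus strand) 9. Another RefSeq start of Zfp800, at 28261924, is richer in CpG but had no peak within 1 kb. From 250 bases before it to 50 after, it held 41 CG, and the nearest peak lay 5291 bp away in AAV-Cre and 32789 bp in AAV-GFP.
Zfp827: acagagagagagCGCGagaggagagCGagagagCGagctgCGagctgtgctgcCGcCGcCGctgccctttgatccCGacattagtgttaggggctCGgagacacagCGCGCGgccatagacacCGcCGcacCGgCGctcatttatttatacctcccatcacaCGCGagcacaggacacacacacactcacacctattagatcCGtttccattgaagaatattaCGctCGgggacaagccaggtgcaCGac
Zfp853: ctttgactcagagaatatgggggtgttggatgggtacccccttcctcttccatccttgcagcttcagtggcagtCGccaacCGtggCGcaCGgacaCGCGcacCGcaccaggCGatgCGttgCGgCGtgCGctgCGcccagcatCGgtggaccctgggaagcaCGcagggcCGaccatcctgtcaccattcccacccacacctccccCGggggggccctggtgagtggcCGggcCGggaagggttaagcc
Zfp800: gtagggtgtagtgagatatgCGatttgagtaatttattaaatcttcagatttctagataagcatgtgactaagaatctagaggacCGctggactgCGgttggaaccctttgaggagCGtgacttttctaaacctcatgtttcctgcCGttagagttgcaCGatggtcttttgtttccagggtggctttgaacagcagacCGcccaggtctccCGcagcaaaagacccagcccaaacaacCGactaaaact
The genes with no peak were Zfp808 (chr13:62129640-62129889, plus strand) with 5, Zfp809 (chr9:22225462-22225711, plus strand) with 11 and Zfp810 (chr9:22307639-22307888, minus strand) with 15. Zfp809 is the KRAB protein that silences retroviruses by binding their proline-tRNA primer site, and the nearest peak lay 58706 bp from its start in AAV-Cre and 124516 bp in AAV-GFP.
Zfp808: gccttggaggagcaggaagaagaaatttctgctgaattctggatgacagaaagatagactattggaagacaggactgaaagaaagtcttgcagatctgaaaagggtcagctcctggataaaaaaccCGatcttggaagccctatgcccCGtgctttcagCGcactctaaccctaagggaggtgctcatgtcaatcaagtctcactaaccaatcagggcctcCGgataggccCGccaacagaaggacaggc
Zfp809: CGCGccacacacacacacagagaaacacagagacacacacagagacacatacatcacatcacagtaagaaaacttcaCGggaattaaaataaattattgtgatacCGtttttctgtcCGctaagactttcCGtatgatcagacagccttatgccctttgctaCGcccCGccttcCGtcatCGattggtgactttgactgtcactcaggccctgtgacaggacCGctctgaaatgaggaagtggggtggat
Zfp810: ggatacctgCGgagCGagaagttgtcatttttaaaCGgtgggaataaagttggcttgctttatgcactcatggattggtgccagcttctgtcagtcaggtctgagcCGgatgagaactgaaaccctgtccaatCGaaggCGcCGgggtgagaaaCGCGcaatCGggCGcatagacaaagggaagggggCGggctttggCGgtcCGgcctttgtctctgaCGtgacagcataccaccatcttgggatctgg
Across the 91 RefSeq promoters that matched 77 of the 90 genes, the median was 7 CG in these 250 bases (interquartile range 4 to 11), against 6 over 31396 autosomal promoters (2 to 16). For the 7 promoters with an AAV-Cre peak within 1 kb of their own start the median was 13, and they ran from 4 to 23. It was 7 for the promoters of genes with no peak, which ran from 2 to 38. The ranges thus overlapped. Within 500 bp of the start on either side, the median ratio of observed to expected CpG was 0.667 in the 7 genes with an AAV-Cre peak there, 0.408 in the other 83 and 0.568 over all genes.

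Only AAV-Cre marked the start of Zfp819 and Zfp941. Zfp819 (ENSMUSG00000055102.15, chromosome 7, 43607169 to 43618285, plus strand), a KRAB gene known from pluripotent and germ cells, had an AAV-Cre peak of 1274 bp over the start (chr7:43607020-43608293, fold enrichment 4.86, q-value 2.6e-11) and another of 1169 bp 4608 bp upstream. The nearest AAV-GFP peak was 102930 bp away. Zfp941 (ENSMUSG00000060314.13, chromosome 7, 140807449 to 140822178, minus strand) had 4 AAV-Cre peaks, 1 of them over the start (1139 bp, fold enrichment 5.34, q-value 1.4e-13). A single AAV-GFP peak of 182 bp with a q-value of 0.73 lay 14876 bp from that start, past the far end of the gene.

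The other genes marked in AAV-Cre only within 15 kb were Zfp882, Zfp949, Zfp867, Zfp871, Zfp839 and Zfp930, with the nearest peak from 3241 bp (Zfp882) to 14648 bp (Zfp930) away. Their peaks were of 439 to 1519 bp with fold enrichments from 1.82 to 3.47. For Zfp871, Zfp839 and Zfp930 the peak was closer to the start of another gene, Zfp811, Mok and Lzts1, respectively. The peak near Zfp871 had a q-value of 0.14 and lay in the last exon of Zfp811.

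Zfp879 (chromosome 11) was marked in both lists, by peaks that were likewise closer to a neighbour. Its AAV-Cre peak of 6392 bp (fold enrichment 4.96, q-value 1.1e-29) covered a start of Grm6, a metabotropic glutamate receptor gene, and lay 6444 bp from that of Zfp879. The 4 AAV-GFP peaks at Zfp879 lay within it, and the strongest, of 1630 bp, had a q-value of 2.9e-11. At Zfp961 (chromosome 8, 71951038 to 71993792), AAV-Cre had 6 peaks of 325 to 1603 bp over the far part of the body, from 28862 to 41713 bp after the start and each closer to Cyp4f18, and AAV-GFP had 0. Both lists had a peak upstream of it, at 4646 bp in AAV-Cre and 5519 bp in AAV-GFP, where the latter had a q-value of 0.15. Zfp831 (chromosome 2, 174643534 to 174710832) had no peak within 15 kb of its start. AAV-Cre had 3 peaks and AAV-GFP had 1 over its body. An intron held an AAV-Cre peak of 1674 bp 30658 bp after the start (fold enrichment 7.13, q-value 7.5e-23) and an AAV-GFP peak of 513 bp inside it (q-value 0.029).

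**Figure D2:**
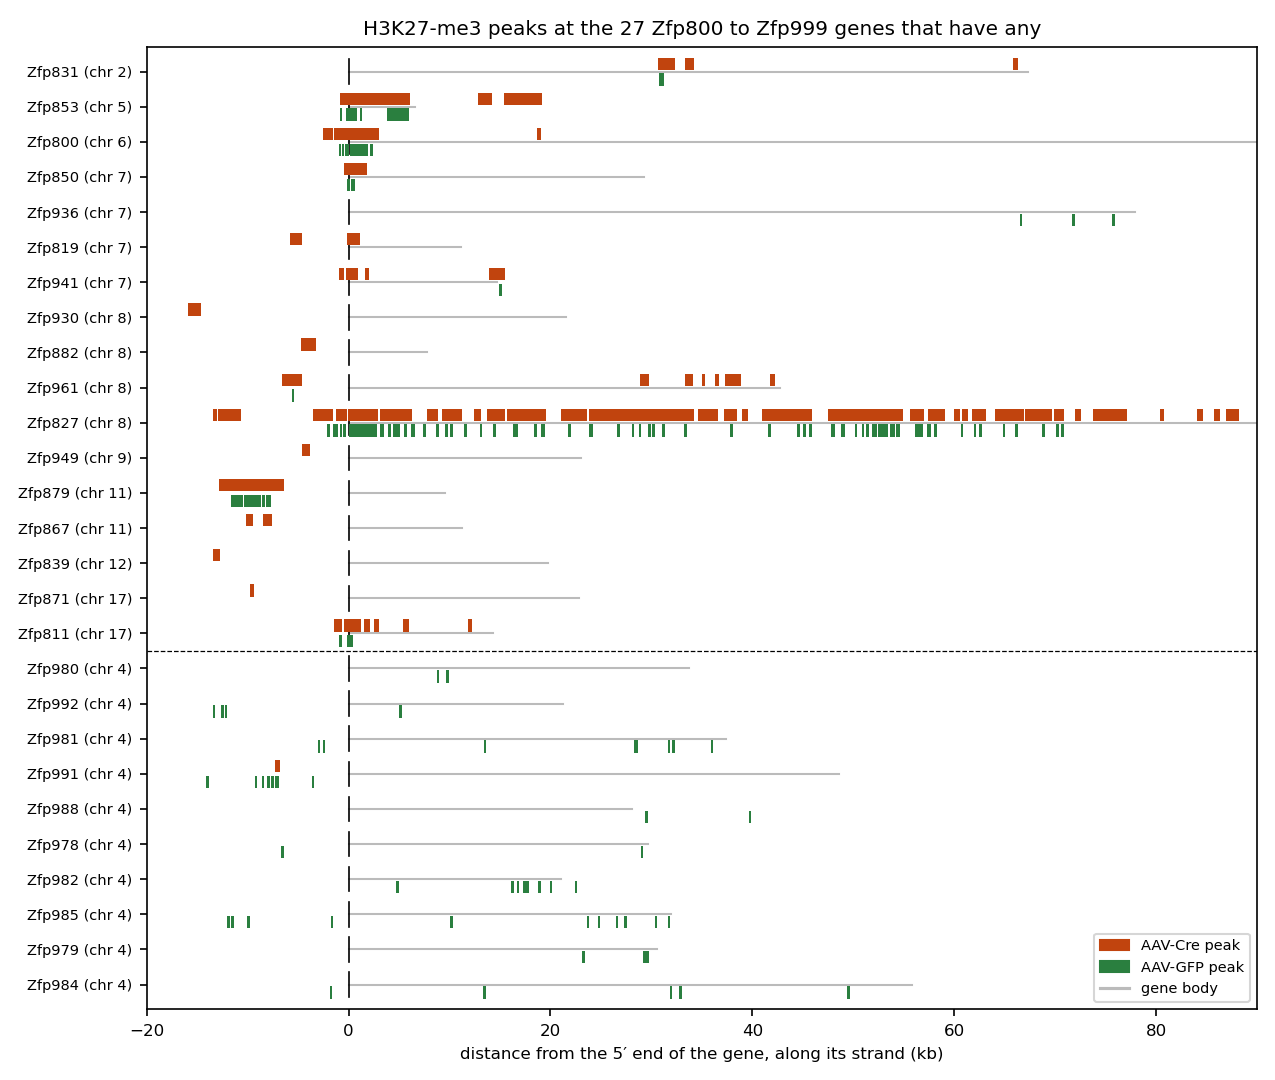
Peaks at the 27 Zfp800 to Zfp999 genes that had any, by distance from the 5′ end of the gene (kb, x axis), with AAV-Cre peaks above and AAV-GFP peaks below the grey gene body, and the chromosome 4 cluster under the dashed line. Peaks over 90 kb from the 5′ end are not drawn. The 10 cluster genes show 1 AAV-Cre peak, at Zfp991, and many short AAV-GFP peaks.

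As in the whole lists, peaks at the 90 genes were wider in AAV-Cre than in AAV-GFP. The 72 AAV-Cre peaks had a median width of 1174 bp (interquartile range 606 to 1992 bp), against 753 bp over all autosomal peaks. The 127 AAV-GFP peaks had a median of 203 bp (148 to 334 bp), against 231 bp. A q-value of at most 0.05 was reached by 66 of the former (91.7%) and 59 of the latter (46.5%). Zfp827 alone gave 32 and 54 of these peaks, and without it the median widths were 884 and 182 bp.

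Because the finger array of such genes usually lies in the last exon, the position of the peaks inside the genes was examined. Of 53 AAV-Cre peaks over gene bodies, 5 (9.43%, interval 4.1 to 20.3%) touched a last exon, and of 91 AAV-GFP peaks 8 did (8.79%, interval 4.52 to 16.4%). Over the bodies of all 90 genes, 72 of which held no peak in either list, the last exons made up 9.25% of the length. Peaks within introns numbered 40 and 77. These shares turned on Zfp827, which gave 28 of the AAV-Cre peaks with 1 over the last exon and 50 of the AAV-GFP peaks with 0. Without it, 4 of 25 AAV-Cre peaks (16%) and 8 of 41 AAV-GFP peaks (19.5%) touched a last exon. Over the bodies of all the genes but Zfp827, with or without a peak, the last exons made up 9.63% of the length. Peaks of 1 gene are not independent, and the intervals do not allow for this.

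Proteins translated from the coding exons were searched for fingers and for a KRAB A box. A KRAB box was called in 78 of the 90 genes, where at least 10 of 15 conserved letters matched, and the other 12 matched at most 7 letters. The median number of fingers was 11, and it ran from 0 to 22. The genes without a KRAB box were Zfp831, Zfp986, Zfp853, Zfp800, Zfp956, Zfp865, Zfp974, Zfp827, Zfp821, Zfp830, Zfp839 and Zfp957. For Zfp986 the annotated protein has 21 residues, shorter than the pattern searched, so no box could have been found in it. Within 1 kb, 3 of the 12 genes without a KRAB box (25%) were marked in each list, namely Zfp853, Zfp800 and Zfp827, against 4 of the 78 with a KRAB box (5.13%) in each list. Of all genes, 24.6% were marked within 1 kb in AAV-Cre and 17.1% in AAV-GFP, so the 25% was near the share of all genes in AAV-Cre and rested on 3 genes. Of the other numbered Zfp genes, 24 of 134 without a KRAB box (17.9%) and 11 of 134 with one (8.21%) were marked within 1 kb in AAV-Cre, and 17 (12.7%) and 4 (2.99%) in AAV-GFP. In AAV-Cre the 3 start-site peaks with the highest −log10 p were at these 3 genes. The 10 genes with peaks in AAV-GFP only, within 15 kb or over the body, all had a KRAB box, as did 86.7% of the 90 genes and 15 of the 16 genes of the chromosome 4 cluster, in which 9 of the 10 lie.

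The 90 genes were not spread evenly. When neighbouring numbered Zfp genes up to 500 kb apart were joined, 64 of the 90 lay in 13 clusters with at least 2 of them, and 26 lay with no other. Of those 26, 9 had a peak in either list, against 46.1% of all genes. On chromosome 2, 10 genes lay in 3 clusters (175372436 to 175931100, 176521056 to 176719085 and 177464733 to 178078476) in which both lists held 0 peaks. Of these spans, 100, 50 and 100 kb, respectively, are unsequenced in the reference. The 3 genes of a chromosome 13 cluster (62129886 to 62571199) also lay in a stretch with 0 peaks. In a chromosome 17 cluster (21008903 to 23599487) 11 genes had no peak, although 18 AAV-Cre peaks, 12 of them AAV-Cre only, and 44 AAV-GFP peaks, 33 of them AAV-GFP only, fell between and around them. Of the 6 genes of a chromosome 8 cluster (69209038 to 69791178), Zfp930 alone was marked, in AAV-Cre.

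The cluster with most of the genes was on chromosome 4 (145510759 to 147848366), where 16 of them lie among 22 protein-coding genes over 2.34 Mb, from Zfp990 to Zfp933. Here the lists parted. AAV-Cre held 4 peaks, of which 2 overlapped an AAV-GFP peak, and AAV-GFP held 82, of which 79 overlapped no AAV-Cre peak. Per Mb this is 1.71 peaks in AAV-Cre, against 23.9 over the autosomes, and 35.1 in AAV-GFP, against 13.9. Over the autosomes 4686 of 34307 AAV-GFP peaks, or 1.9 per Mb, overlapped no AAV-Cre peak. Of the 2.34 Mb, 432 kb are unsequenced in the reference.

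Among its genes, Zfp978, Zfp980, Zfp981, Zfp982, Zfp984, Zfp985, Zfp988 and Zfp992 were marked within 15 kb in AAV-GFP only, Zfp991 in both lists, and Zfp979 held peaks in AAV-GFP only, over its body. Zfp933, Zfp986, Zfp987, Zfp989, Zfp990 and Zfp993 had no peak in either list. Distances are to the nearest of a gene's starts, of which Zfp979, Zfp980, Zfp981, Zfp982, Zfp984 and Zfp988 have 2. The nearest AAV-GFP peak lay 507 bp from a start of Zfp981, 944 bp from that of Zfp982, 1096 bp from that of Zfp984 and 1718 bp from that of Zfp985, with q-values of 1, 0.0024, 0.61 and 1. It lay 2658 bp from Zfp988, 5017 bp from Zfp992, 6580 bp from Zfp978 and 8740 bp from Zfp980, with q-values of 0.00026, 0.069, 0.0024 and 3e-06. For these 8 genes the nearest AAV-Cre peak was 45745 bp (Zfp978) to 652795 bp (Zfp992) away.

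Within their bodies, Zfp985 held 7 AAV-GFP peaks, Zfp982 held 6, Zfp981 held 5, Zfp984 held 4, Zfp979 and Zfp980 held 2 each, and Zfp978 and Zfp992 held 1 each. They covered from 0.633% (Zfp978) to 7.09% (Zfp982) of the body. The last exon was touched in Zfp978, Zfp979, Zfp981, Zfp982 and Zfp985. Zfp991 had an AAV-Cre peak of 559 bp 6761 bp upstream of the start (chr4:147124719-147125277, fold enrichment 3.39, q-value 1.3e-16), an AAV-GFP peak of 367 bp inside it, and 6 more AAV-GFP peaks around it that were found in that list only.

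The AAV-GFP only peaks of the cluster were short and poor in GC. Their median width was 165 bp, 71 of the 79 were under 300 bp, the shortest width in the AAV-Cre list, and 43 had a q-value of 0.05 or lower. Their fold enrichments ran from 1.72 to 4.37. Their median GC content was 35.8% and ran from 23 to 51.6%, and each held 0 to 5 CG. The other 7 peaks of the cluster were rich in GC, from 67.8 to 80.1%, with 23 to 71 CG each, in both lists. Of the 79, 34 lay in a protein-coding gene, and 28 of those in 1 of the 16 Zfp genes.

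**Figure D3:**
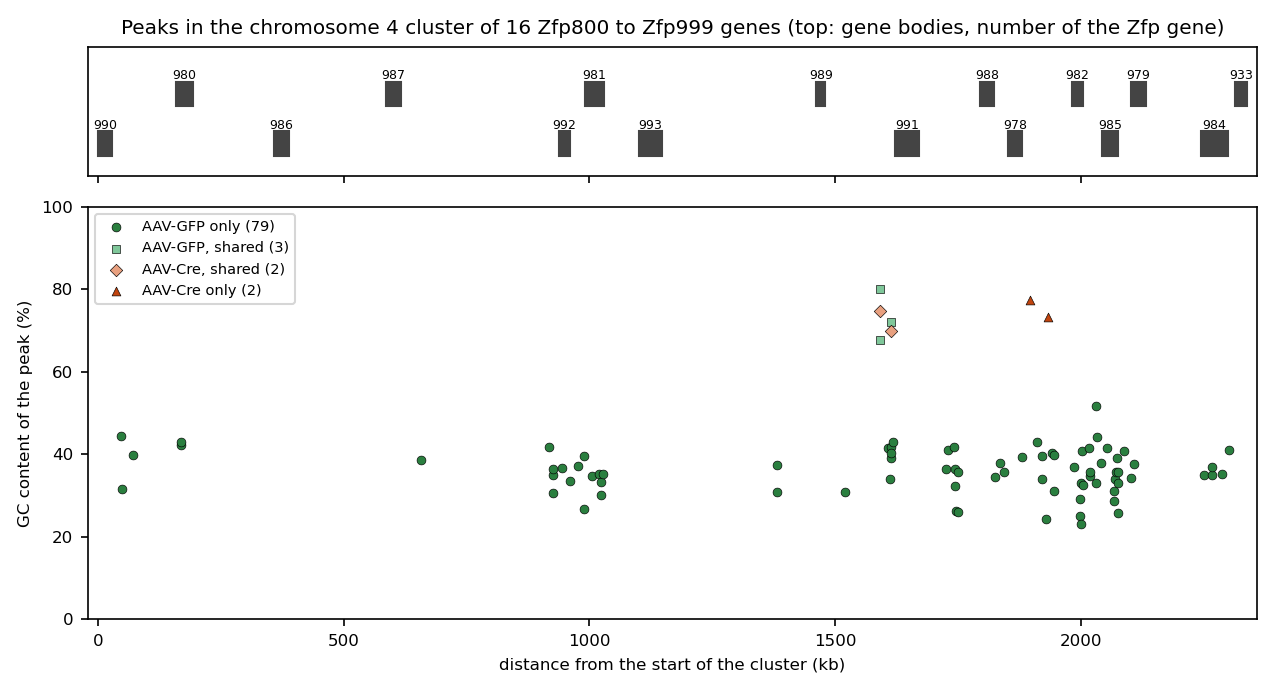
GC content of each peak (%, y axis) by distance from the start of the chromosome 4 cluster (kb, x axis), with the bodies of its 16 Zfp800 to Zfp999 genes above. The 79 AAV-GFP only peaks lie between 23 and 51.6% GC, and the 4 AAV-Cre peaks and the 3 AAV-GFP peaks that overlap them lie between 67.8 and 80.1%.

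The letters of 4 peaks from the AAV-GFP list show this contrast. They are the AAV-GFP only peak with the highest −log10 p inside a gene body (in an intron of Zfp980), the one with the highest fold enrichment (1738 bp upstream of Zfp984), the strongest within 1 kb of a start (in an intron of Zfp982) and the shortest peak that an AAV-Cre peak overlaps. All are given on the plus strand of GRCm38.p6, with CG in capitals, at chr4:145680345-145680549, chr4:147811526-147811671, chr4:147508544-147508732 and chr4:147102093-147102263, and hold 2, 0, 0 and 31 CG. Their fold enrichments in AAV-GFP were 3.33, 4.37, 3.29 and 2.26, and their q-values 4.3e-07, 1.5e-07, 0.0024 and 0.17.
Zfp980 intron: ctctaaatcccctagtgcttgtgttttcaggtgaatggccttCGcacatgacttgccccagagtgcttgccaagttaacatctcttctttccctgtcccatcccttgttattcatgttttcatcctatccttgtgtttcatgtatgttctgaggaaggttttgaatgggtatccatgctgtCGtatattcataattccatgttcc
Upstream of Zfp984: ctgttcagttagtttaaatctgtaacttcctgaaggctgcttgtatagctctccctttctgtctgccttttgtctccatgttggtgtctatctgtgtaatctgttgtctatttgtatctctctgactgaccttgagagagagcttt
Zfp982 intron: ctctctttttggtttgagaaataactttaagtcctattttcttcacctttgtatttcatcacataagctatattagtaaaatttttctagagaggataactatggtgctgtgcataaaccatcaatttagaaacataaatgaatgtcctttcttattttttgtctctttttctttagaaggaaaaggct
Shared peak: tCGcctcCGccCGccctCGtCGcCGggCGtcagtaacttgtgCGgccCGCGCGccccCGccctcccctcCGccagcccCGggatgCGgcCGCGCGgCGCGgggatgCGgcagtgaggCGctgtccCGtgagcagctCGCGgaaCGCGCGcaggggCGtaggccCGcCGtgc
The shared peak lies outside protein-coding genes, 64 bp from the start of Gm13142, a processed pseudogene, and the AAV-Cre peak over it 11 bp from that start. A pair of the other AAV-Cre peaks of the cluster reached the start of a processed pseudogene, Gm13162 and Gm13161. The last (chr4:147407056-147407560) lay 28127 bp from the nearest annotated start. All AAV-Cre peaks of the cluster lay in the long noncoding RNA C230088H06Rik, and this last peak and the one at Gm13161 also in Gm26624. The peak at Gm13161 (chr4:147443028-147443482) also covered a start that RefSeq gives to Zfp982, 49303 bp from the nearest GENCODE start used here. With that start, Zfp982 would be marked in AAV-Cre as well.

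Since reads from near-identical copies cannot be placed with certainty, the uniqueness of the sequence was measured as the share of 31-base words of a peak that occur once in the 21 chromosomes, counting both strands. For the 79 AAV-GFP only peaks of the cluster the median was 64% (interquartile range 44.9 to 77.6%), and in 25 of them under 50% of the words were unique. For every 20th autosomal peak the median was 100% in both lists, and it was also 100% (93.9 to 100%) for the 241 of those AAV-GFP peaks that no AAV-Cre peak overlapped. At the 74 genes outside the cluster AAV-Cre peaks had a median of 98.9% and AAV-GFP peaks of 100%. The 4 AAV-Cre peaks of the cluster had a median of 79.1%. The printed peaks at Zfp980, Zfp984 and Zfp982 had 41.7, 42.2 and 88.7%, and the words of the Zfp984 peak had a median of 6 copies. Whether placing of reads among copies has a part in the AAV-GFP only peaks was not tested.

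**Figure D4:**
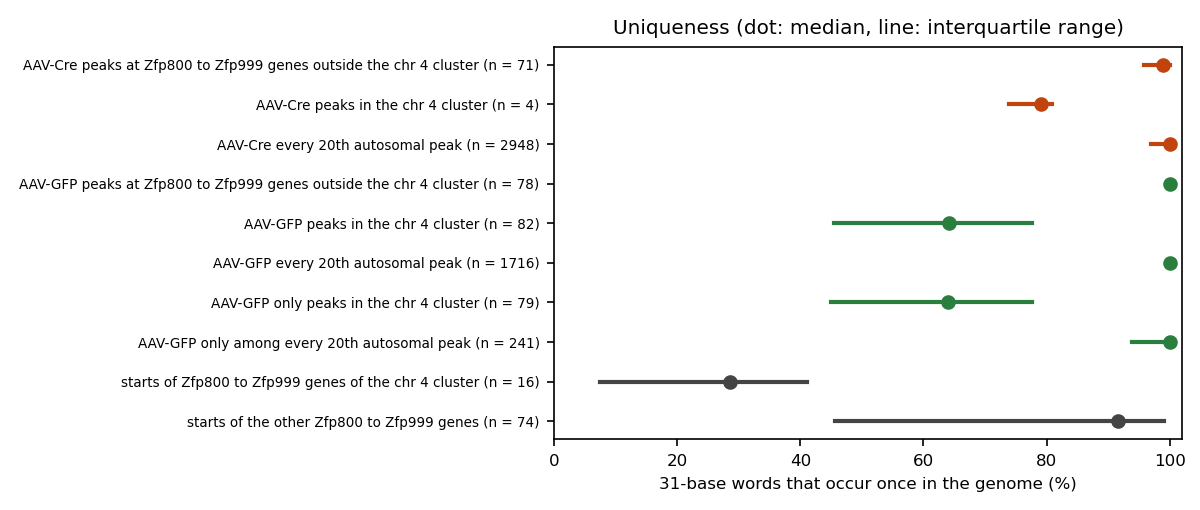
Share of 31-base words that occur once in the genome (%, x axis) for peaks and for 500 bp on either side of start sites, with a dot for the median, a line for the interquartile range and the number of peaks or starts in brackets. The lowest medians are those of the chromosome 4 cluster, 28.6% for its starts and 64% for its AAV-GFP only peaks.

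The uniqueness around the start sites differed between the clusters. Within 500 bp of the start, the median share of unique words was 28.6% for the 16 genes of the chromosome 4 cluster and 91.6% for the other 74. For the 10 genes of the chromosome 2 clusters it was 0%, at most 31.6%, and for the 3 of the chromosome 13 cluster 17.8%, and at these 13 genes 0 peaks were found in either list. For the 11 genes of the chromosome 17 cluster it was 53.1%. None of these 11 was marked, while the span of that cluster held 33 AAV-GFP only peaks, or 12.7 per Mb, against 33.8 per Mb in the chromosome 4 cluster and 1.9 over the autosomes.

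Outside the chromosome 4 cluster, 17 of 74 genes had a peak, 9 in both lists, 7 in AAV-Cre only and 1 in AAV-GFP only. Of all genes, 46.1% had a peak in either list, 29.3% in both, 15.4% in AAV-Cre only and 1.36% in AAV-GFP only. The 1 gene with AAV-GFP peaks only was Zfp936 (chromosome 7, 43114229 to 43192109), a KRAB gene with 3 AAV-GFP peaks of 120 to 134 bp over its body, the nearest 1102 bp from a start, and q-values from 0.18 to 0.43. Of the AAV-GFP peaks at genes outside the cluster, 73 of 78 overlapped an AAV-Cre peak, against 1 of 49 at genes of the cluster. Over the autosomes 29621 of 34307 AAV-GFP peaks did, and Zfp827 alone gave 54 of the 78. In the other direction, 32 of 71 AAV-Cre peaks at genes outside the cluster overlapped an AAV-GFP peak, against 14227 of 58951 over the autosomes.

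To see how far the cluster stands out along the genome, AAV-GFP only peaks were counted in 2473 autosomal bins of 1 Mb. The median was 1 per bin and the mean 1.89, and 40 bins held at least 10. The bins of the chromosome 4 cluster held 14, 17 and 57, which rank 16th, 7th and 2nd, behind a bin of chromosome 13 with 61 in which none of the 90 genes lies. The 6th, with 21, began at 22000001 on chromosome 17 and holds 5 of the 90 genes, at which 0 peaks were called. Of the bins that hold any of the 90 genes, 12 had 0 such peaks.

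**Figure D5:**
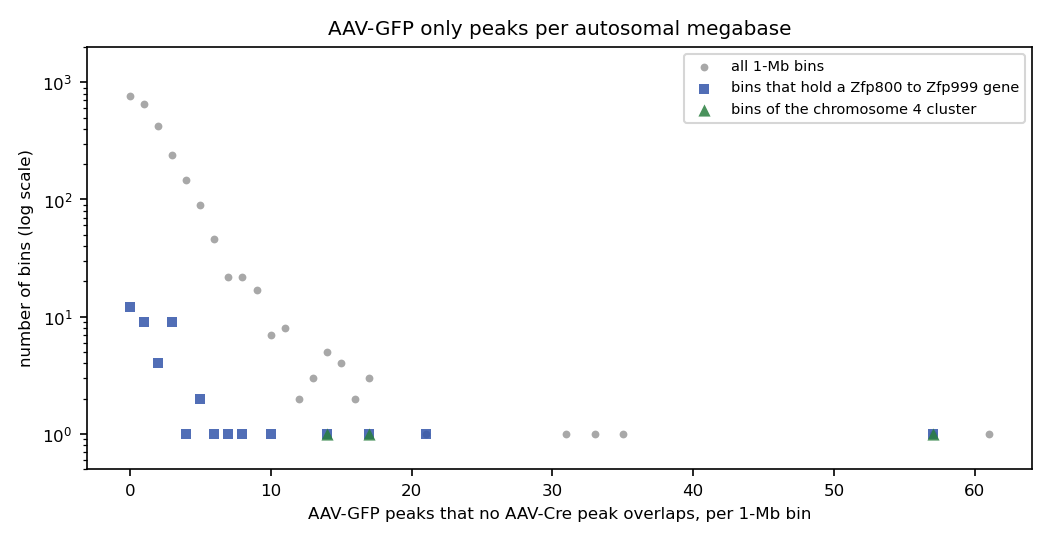
Number of autosomal 1-Mb bins (log scale, y axis) by the number of AAV-GFP peaks that no AAV-Cre peak overlaps (x axis), for all bins, for those that hold a Zfp800 to Zfp999 gene and for those of the chromosome 4 cluster. The cluster bins sit at 14, 17 and 57, where the median of all bins is 1.

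The partners through which KRAB proteins act were examined by a list of 18 genes. Within 15 kb, 3 of the 18 were marked in AAV-Cre and 1 in AAV-GFP, against 43.1% and 29% of all genes. Trim28, the corepressor itself, had its nearest peak 19185 bp away in AAV-Cre and 20235 bp in AAV-GFP, and Setdb1, its methyltransferase, 47580 and 70014 bp away. Uhrf1, which guides maintenance of DNA methylation, had an AAV-Cre peak 100 bp from its start and the nearest AAV-GFP peak 62196 bp away. Hdac1, a histone deacetylase, had one 10387 bp away in AAV-Cre and 27922 bp in AAV-GFP. Zfp57, a KRAB zinc-finger gene that keeps genomic imprints, was covered at the start in both lists.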

How the data were processed

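Each deposited peak list holds, for H3K27-me3 ChIP-seq of 1 virus group, positions with a fold enrichment over input and the −log10 of a p-value and of a q-value, as the peak caller run by the authors gave them. A display score and a summit offset, also deposited, were not used. According to the study's methods and the submitters' processing notes, the authors ran the AQUAS pipeline for histone marks with a pooled input control, with BWA 0.7.13, SAMtools 1.2, Picard 1.126 and MACS on mm10, and kept peaks that overlapped across replicates. Narrow-peak calling splits broad domains into several peaks. No read counts are given, so depth is unknown.

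The members and gene lists were chosen with earlier results of these data known. Genes were chosen by name in GENCODE M21, with start sites of basic protein-coding transcripts. Peaks overlapped when they shared at least 1 bp. Shares have Wilson 95% intervals. Since each group has 1 list, no test was made. Genes are named with values when a peak lay within 1 kb of a start, when among the 5 highest −log10 p of a list, when marked within 15 kb in AAV-GFP only, when holding the widest peak over a body or when in the largest cluster; others were named after their values were seen. Zfp827, Zfp853, Zfp800, Zfp879, Zfp850 and Zfp811 (tied) led AAV-Cre by −log10 p, and Zfp827, Zfp853, Zfp879, Zfp991 and Zfp800 led AAV-GFP.

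Fingers (C-x2-C-x12-H-x3to5-H) and KRAB boxes were planned on RefSeq proteins. They were searched in coding exons translated from the genome instead, with a number of letters set after the counts were seen. Words of 31 bases were counted in the genome. The calls were checked on simulated peaks. Alternatives were q-values of 0.05 and 0.01, equal peak numbers, a minimum width of 300 bp, windows of 5 and 50 kb, 1 start per gene and 0.5 of the peak inside the body, and, chosen after seeing the data, leaving out the chromosome 4 cluster or Zfp827. Python 3.11, pandas 2.3.3, numpy 2.4.6, pysam 0.24.0, Biopython 1.88, statsmodels 0.14.6 and matplotlib 3.10.9 were used.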

Additional observations from a re-analysis of the deposited data

How the results depend on the processing

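Of 96 recomputed values, 72 stayed within 1.5 times the count or within the error of the value given, and 24 moved. For windows and start sites the cause was not tested, and the other settings remove peaks or genes by construction. Leaving out the chromosome 4 cluster or Zfp827 was chosen after seeing the data. The share of all genes at the same setting follows as background.

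Within 1 kb, the count of AAV-GFP only genes (2) became 1 at a q-value of 0.05 or lower (background 0.082%), 1 at 0.01 or lower (0.0627%), 0 with a minimum width of 300 bp (0.0193%), and 0 with 1 start per gene and without the chromosome 4 cluster. At a q-value of 0.01 or lower, 4 genes were marked in AAV-GFP (13.2%) and 4 in AAV-Cre only (10.2%).

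Within 15 kb, AAV-GFP marked 11 genes at a q-value of 0.01 or lower (background 20.1%), 8 with a minimum width of 300 bp (20.8%), 1 of them in AAV-GFP only (0.0772%), and 9 without the chromosome 4 cluster, 1 of them in AAV-GFP only. The AAV-GFP only count was 8 and 6 at q-values of 0.05 and 0.01 (0.319 and 0.241%), and 9 with equal peak numbers (1.9%). A window of 5 kb gave 10 genes in AAV-Cre (31.1%), and one of 50 kb gave 34 in AAV-Cre (63.9%) and 36 in AAV-GFP (48.3%).

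Over bodies, a q-value of 0.01 or lower gave 8 genes in AAV-GFP (background 15.5%), 6 in AAV-Cre only (12.7%) and 5 in AAV-GFP only (0.13%). A minimum width of 300 bp gave 9 in AAV-GFP (16.3%) and 3 in AAV-GFP only (0.0579%), and leaving out the chromosome 4 cluster 7 and 1. The median width of AAV-GFP peaks at members was 384 bp with that minimum width. Without Zfp827, 19.5% of AAV-GFP peaks over bodies touched a last exon. No replicate was left out, since both went into 1 list. No paired analysis was possible because 1 combined list per group carries no replicate values.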
